A study of Mus musculus with 6 samples.

Results

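The Rab genes encode small GTPases that mark the membranes of the secretory and endocytic pathways. A Rab protein switches between a GDP-bound state and a GTP-bound state in which it recruits effectors. Exchange factors (GEFs) load GTP, GTPase-activating proteins (GAPs) end the active state, and a prenyl tail holds the protein on its membrane until a GDP dissociation inhibitor (GDI) extracts it. In neurons, Rab proteins steer the transport of endosomes along the axon and the release of synaptic vesicles. Rab12 acts between recycling endosomes and lysosomes, is linked to the turnover of the transferrin receptor, and is a substrate of the kinase Lrrk2.

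The genes described here are those whose symbol is Rab followed by a number, an optional letter and an optional digit, which gave 57 of the 23038 genes in the deposited tables. They were followed in NSC34 cells, a mouse line made by fusing neuroblastoma cells with motor neuron-enriched spinal cord cells. Polyadenylated RNA was sequenced from 3 libraries treated with a control siRNA (siNC) and 3 treated with siRNA against Qk (siQk), the gene of the RNA-binding protein quaking. All 6 came from 1 cell line grown in serum-containing medium, with no genetic change named in the labels. The labels speak of 3 different siRNAs against Qk and of biological replicates, but not of which siRNA each siQk library received, so siRNA and replicate cannot be told apart.

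Total counts were 43000503 to 53565950 per library, and 16055 to 16515 genes had a count. Qk (Entrez 19317) was at 9.67, 8.18 and 14.9 RPKM (reads scaled to exon length in kilobases and to the library's total) in the siNC libraries and at 1.39, 1.71 and 1.105 RPKM in the siQk libraries, 12.8% of the control mean (log2 fold change -2.997, SE 0.34, edgeR quasi-likelihood adjusted p = 0.0149). Of the neuronal markers, Tubb3 was at 142 to 349 RPKM and the summed level of the 15 listed genes at 409 to 764 RPKM, with ranges that overlapped between groups. The motor neuron gene Isl1 was at 4.75 to 4.83 RPKM in siNC and 7.80 to 9.63 RPKM in siQk, with a quasi-likelihood unadjusted p of 0.00101 and an adjusted p of 0.033 in DESeq2, which called it higher. Slc18a3, the vesicular acetylcholine transporter, was at 1.56 to 2.29 RPKM. Other motor neuron genes were at or near 0, with Chat at no more than 0.141 RPKM, Mnx1 at no more than 0.0944 RPKM and Slc5a7 at no more than 0.0238 RPKM. The marker lists of oligodendrocytes, astrocytes and microglia summed to at most 11.6, 2.84 and 1.05 RPKM. The 6 fibroblast markers summed to 3.13 to 5.34 RPKM in siNC and 0.972 to 2.98 RPKM in siQk. Nearly all of that was Pdgfrb, the only 1 of the 6 with enough counts to test (log2 fold change -1.01, SE 0.61, unadjusted p = 0.0356), while Col1a1 was at no more than 0.121 RPKM and Lum at 0 in every library. The part of these levels in any Rab value was not tested.

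Rab12 (Entrez 19328) lies on chromosome 17 at 66494512 to 66519729 of GRCm38, on the minus strand, and has 6 exons in its longest GENCODE mRNA. None of its exon bases are shared with another annotated gene. Exon 2 (66506033 to 66506093) and exon 3 (66500310 to 66500448) are separated by an intron of 5584 bases, whose coverage was not analysed here because the tables hold 1 value per gene. Quaking proteins are known to bind RNA at ACUAAC and ACUAAU, written here as ACTAAC and ACTAAT. The 2069-base Rab12 mRNA holds 2 such hexamers, both in the 3′ UTR in exon 6, at mRNA positions 1004 (chr17:66495572-66495577) and 2029 (chr17:66494547-66494552). Each is shown 5′ to 3′ in the sense of the mRNA with 12 bases on each side and the hexamer in capitals, because Rab12 is the member with the smallest p:
Rab12, position 1004: agtcagctatacACTAACttgtaaatatgc
Rab12, position 2029: tggtctttctacACTAATgaagtgcaaata

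Such hexamers were common. At least 1 was found in the mRNAs of 9419 of 21732 protein-coding genes (43.3%), of 27 of the 57 Rab genes (47.4%), and of 34.5% of the 2116 mRNAs within 10% of the length of that of Rab12. Only the strand of the spliced mRNA was searched, so introns, including that between exons 2 and 3 of Rab12, are not covered by these counts, and a match is not evidence of binding.

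Rab12 had the smallest p of the family and separated groups, but was not called by the quasi-likelihood test. Its level was 56.1, 58.7 and 71.0 RPKM in the siNC libraries and 35.4, 41.9 and 34.7 RPKM in the siQk libraries, or 61.9 ± 7.94 against 37.4 ± 3.98 RPKM (SD, n = 3). Every siQk library lay below every siNC library, and the siQk mean was 60.3% of the control mean. These levels rested on 3216 to 6136 counts per library, so counting error was small beside the spread between libraries. The fitted log2 difference, siQk over siNC, was -0.76 (SE 0.15) and gave an unadjusted p of 0.00135 and an adjusted p of 0.9996 in edgeR's quasi-likelihood test over the 12665 genes tested. Of those genes, 10 (0.079%) had as small a p and 140 (1.11%) as low a fold change. DESeq2 gave a log2 fold change of -0.77 with an adjusted p of 0.090, past the threshold of 0.1, and the edgeR exact test gave an adjusted p of 0.162. A two-sided exact permutation test of the RPKM values gave p = 0.1, the smallest that 3 against 3 libraries allow. The study itself singled out Rab12 in these libraries, so these values describe the gene and are not independent evidence of its direction. In bulk RNA, fewer cells that express a gene and less RNA per cell cannot be told apart.

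The place of Rab12 among the Rab genes, taken from the same RPKM values and so not a separate result, differed between groups. In the siNC libraries it ranked 11, 10 and 8 by RPKM and held 3.67%, 3.69% and 4.93% of the summed Rab level. In the siQk libraries it ranked 15, 15 and 16 and held 2.39%, 2.35% and 2.23%. Neither the ranks nor the shares overlapped between groups. In the order of siNC means it stood between Rab28 (53.5 to 80.9 RPKM) and Rab11a (55.6 to 65.7 RPKM), both of which overlapped its range. In the order of siQk means it stood between Rab35 (36.1 to 50.7 RPKM) and Rab1b (32.6 to 35.6 RPKM), again with overlap.

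**Figure D1:**
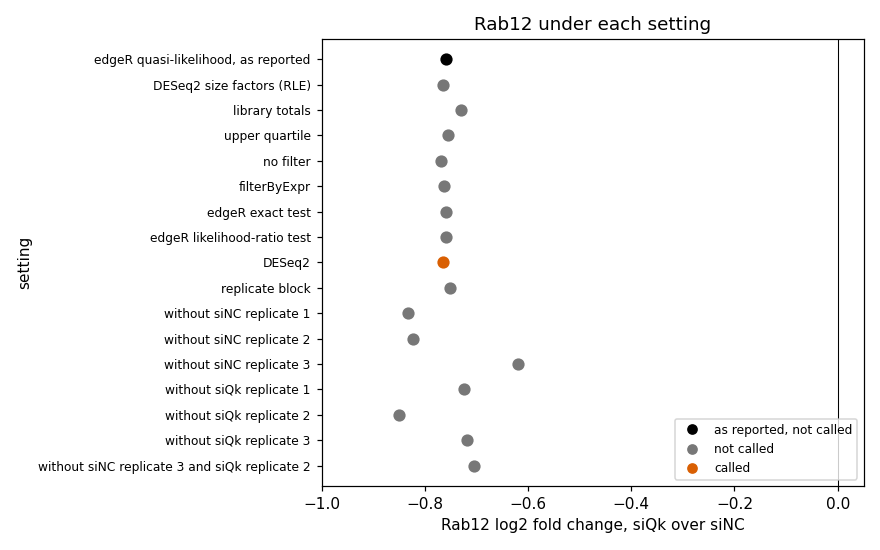
The log2 fold change of Rab12 (x axis, siQk over siNC) under the reported fit and 16 other settings (y axis), coloured by whether Rab12 passed both thresholds. All 17 points lie between -0.85 and -0.62, and DESeq2 is the setting under which the gene was called.

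Across the family, 47 of the 57 Rab genes had enough counts to be tested (a mean above 1 CPM, counts scaled to the library's total). None of the 47 was called lower (0.0079% of all genes tested, which is Qk) or higher (0% of all genes tested) by the quasi-likelihood test at an unadjusted p under 0.01 and an adjusted p under 0.1. The edgeR exact test and likelihood-ratio test also called none, and DESeq2 called Rab12 (0.126% of all genes were called lower by DESeq2). At an unadjusted p under 0.05, 2 Rab genes were lower, Rab12 and Rab40b (1.69% of all genes), and 0 were higher (1.2% of all genes). In RPKM the groups did not overlap for 1 lower gene, Rab12 (3.49% of all genes), and for 3 higher genes, Rab11a, Rab8b and Rab9b (5.35% of all genes). By sign alone, 15 fold changes were below 0 (49.2% of all genes tested) and 32 above (50.8%). The median log2 fold change was 0.042 (0.0034 over all genes tested) beside a median SE of 0.18.

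**Figure D2:**
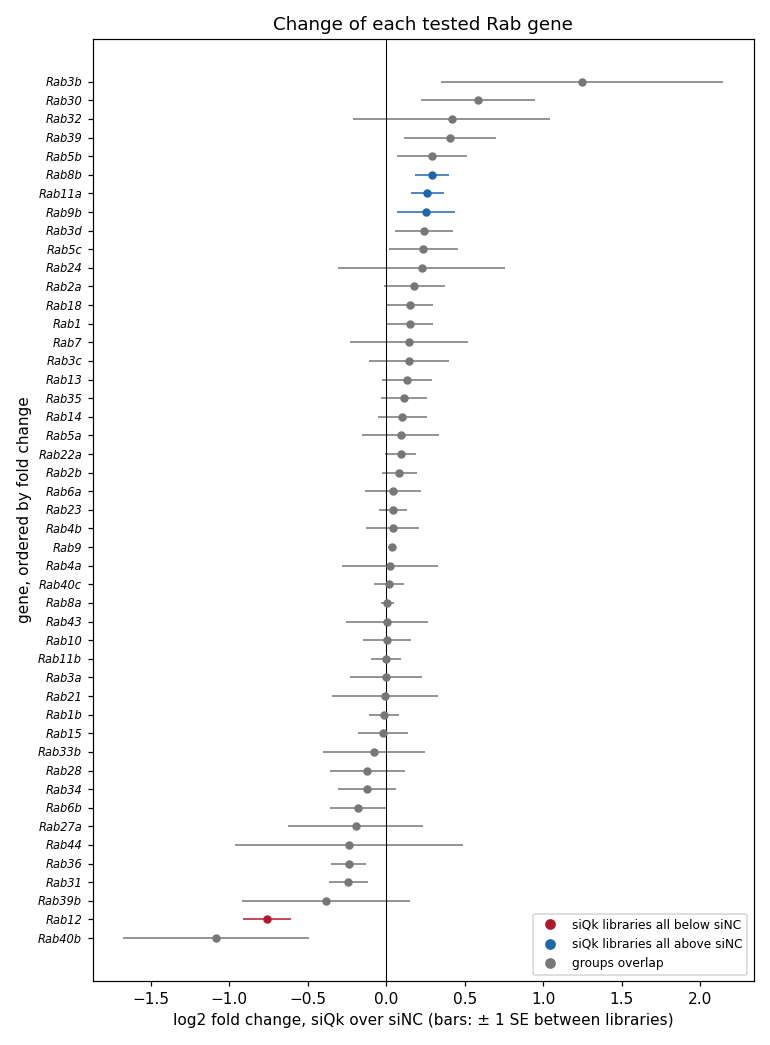
Log2 fold change (x axis, siQk over siNC) of the 47 tested Rab genes (y axis, ordered), with bars of 1 SE between libraries. Rab12, in red, is the gene whose siQk libraries all lie below siNC, Rab8b, Rab11a and Rab9b, in blue, lie above, and Rab40b and Rab3b at the 2 ends have wide bars.

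The level of the family as a whole was similar in both groups. Summed over the 57 genes it was 1531.6, 1591 and 1440 RPKM in siNC and 1482.5, 1786 and 1557 RPKM in siQk. The ranges overlapped, and siQk replicate 2 was the highest library. The next counts are in log2 CPM as scaled for the fit, not in RPKM. On that scale siQk replicate 2 held the highest value of 21 of the 47 tested Rab genes (26.1% of all genes tested). There siNC replicate 3 held the lowest of 15 (25.3% of all genes tested). The difference of the mean summed levels was 87.5 RPKM and became -1.29 RPKM without siQk replicate 2. Rab genes took 0.358% to 0.425% of all counts, and the 10 most abundant members held 57.3% to 62.4% of the summed Rab RPKM.

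Those 10 members covered each main transport step. By mean RPKM over the 6 libraries they were Rab1 (124.5) and Rab2a (107.7), which act between the ER and the Golgi, Rab7 (124.3) and Rab9 (91.7) on late endosomes, Rab6a (102.2) at the Golgi, Rab5c (101.2) and Rab21 (91.9) on early endosomes, Rab11a (68.0) on recycling endosomes, Rab10 (66.7), which acts in exocytosis, and Rab28 (62.9), which is linked to cilia. Few steps in this order were sharp. Of the 46 pairs of neighbours in the order of all tested members, 1 had ranges over the 6 libraries that did not overlap, Rab40c (4.48 RPKM or more) above Rab11b (4.20 RPKM or less). Lengths differ between gene models, so this order rests on the exon lengths in the tables. Rab6a shares 19.0% of its exon bases, and Rab7 7.8%, with a gene on the opposite strand. The kit used does not mark strand, so their levels may include reads of those genes.

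**Figure D3:**
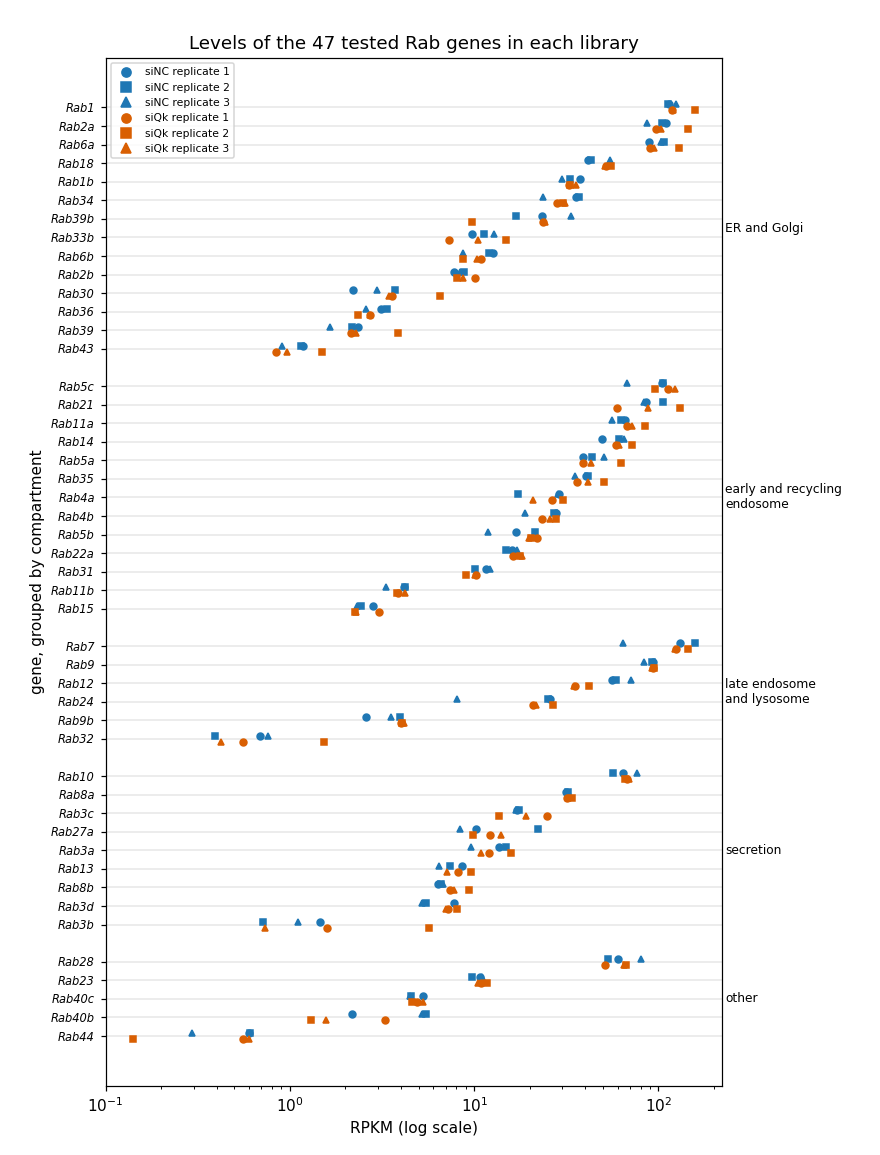
RPKM (x axis, log scale) of each of the 47 tested Rab genes (y axis) in each library, grouped by the compartment where the protein mainly acts, with siNC in blue, siQk in orange and a marker shape per replicate. Levels span from Rab44 (mean 0.466 RPKM) to Rab1 (mean 124.5 RPKM), and the separation of Rab12 stands beside overlapping groups for most other genes.

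The other 10 members were too low to test. Rab17, Rab19, Rab20, Rab25, Rab26, Rab33a and Rab37 did not exceed 0.698 RPKM in any library. Rab38, Rab27b and Rab7l1 (also named Rab29) had a count of 0 in all 6 libraries, where 3 counts would have been at most 0.0442, 0.00980 and 0.0586 RPKM. Among them, Rab38 is known for melanosome biogenesis, and Rab27b for the docking of secretory granules.

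Among the 14 tested Rab genes of the ER and Golgi, none passed an unadjusted p of 0.05 and none had separated groups. With 1.69% lower and 1.2% higher at that p and 3.49% and 5.35% separated among all genes tested, counts of 0 in so short a list are near the background. Their median log2 fold change was 0.024, and their summed RPKM was 490.4 to 496.3 in siNC and 479.6 to 606.2 in siQk. Rab30, a Golgi Rab, was at 2.21, 3.74 and 2.96 RPKM in siNC and 3.57, 6.56 and 3.46 RPKM in siQk, for a log2 fold change of 0.59 (SE 0.36) that was 0.22 without siQk replicate 2. Rab39b, a neuronal Rab whose human gene is linked to intellectual disability and parkinsonism, was at 23.2, 16.9 and 33.4 RPKM in siNC and 23.6, 9.73 and 24.4 RPKM in siQk. Its log2 fold change was -0.38 (SE 0.54), and ran from -0.62 without siNC replicate 2 to -0.061 without siNC replicate 3 when single libraries were left out. Of its exon bases, 18.6% overlap a gene on the opposite strand. For both genes the groups overlapped. Rab1b, the close relative of Rab1, differed by -0.013 (SE 0.094) on the log2 scale, and Rab18, which acts on the ER and lipid droplets, by 0.15 (SE 0.15).

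The early and recycling endosome group had 13 tested members with a median log2 fold change of 0.091, 3 below 0 and 10 above. Rab11a, the main Rab of recycling endosomes, was at 65.7, 62.6 and 55.6 RPKM in siNC and 67.6, 84.5 and 72.1 RPKM in siQk. Its groups did not overlap, by a gap of less than the spread within either group, and the log2 fold change of 0.26 (SE 0.11) had an unadjusted p of 0.116. The fold change was 0.16 without siQk replicate 2. Its relative Rab11b was flat, at 3.34 to 4.20 RPKM with a log2 fold change of 0.00070 (SE 0.095). Rab11a therefore made up 93.7% to 94.3% of the summed Rab11 RPKM in siNC and 94.5% to 95.7% in siQk. The 3 Rab5 genes, which govern fusion of early endosomes, had log2 fold changes of 0.091 (Rab5a, SE 0.24), 0.29 (Rab5b, SE 0.22) and 0.24 (Rab5c, SE 0.22), each with overlapping groups. Rab21 varied most among the abundant members of the group, at 59.4, 131 and 87.3 RPKM in the 3 siQk libraries and 85.0, 105 and 83.6 RPKM in siNC. Rab31, which acts between the Golgi and endosomes, was at 11.6, 10.1 and 12.2 RPKM in siNC and 10.2, 8.97 and 10.1 RPKM in siQk, a log2 difference of -0.24 (SE 0.12) with overlap.

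The late endosome and lysosome group, to which Rab12 belongs, had 6 tested members, of which Rab12 was the 1 with a fold change below 0. Rab7, the Rab of late endosomes and of retrograde axonal transport, was at 131, 158 and 64.1 RPKM in siNC and 125, 145 and 123 RPKM in siQk. Rab24, linked to autophagy, was at 25.6, 25.1 and 8.08 RPKM in siNC and 20.9, 26.6 and 21.7 RPKM in siQk. Both were lowest in siNC replicate 3 and otherwise overlapped. Rab24 shares 62.4% of its exon bases with Prelid1 on the opposite strand, and the poly-A kit used does not mark strand, so reads of the pair cannot be told apart. Rab9, which returns receptors from late endosomes to the Golgi, was at 83.7 to 95.1 RPKM in all libraries, with a log2 fold change of 0.037 (SE 0.026). Rab9b was at 2.58, 3.97 and 3.55 RPKM in siNC and 4.02, 4.07 and 4.15 RPKM in siQk, separated by a gap far smaller than the siNC spread (log2 fold change 0.25, SE 0.19, unadjusted p = 0.277, and 0.089 on the log2 scale without siNC replicate 1). Rab32, known from lysosome-related organelles, was at 0.391 to 0.759 RPKM in siNC and 0.422 to 1.53 RPKM in siQk. Its log2 fold change was 0.42 (SE 0.63) and turned to -0.36 without siQk replicate 2.

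The secretory group held the Lrrk2 substrates Rab8a, Rab8b and Rab10 and the synaptic vesicle Rabs of the Rab3 set. Its summed RPKM was 161.3 to 164.4 in siNC and 168.7 to 173.7 in siQk, which did not overlap. Scaled by the TMM factors of the fit, the sums did overlap (161.3 to 171.0 in siNC and 168.3 to 172.5 in siQk), with siNC replicate 3 the highest of its group. Of the 9 tested members, only Rab8b had separated groups, higher in siQk (5.35% of all genes tested). Rab8b was at 6.33, 6.58 and 6.77 RPKM in siNC and 7.40, 9.32 and 7.78 RPKM in siQk (log2 fold change 0.29, SE 0.11, unadjusted p = 0.122, and 0.18 on the log2 scale without siQk replicate 2). Rab8a was steady at 31.3 to 33.9 RPKM, with a log2 fold change of 0.0075 (SE 0.040). Rab8a accordingly formed 82.6% to 83.2% of the summed Rab8 RPKM in siNC and 78.5% to 81.1% in siQk. Rab10 differed by 0.0049 (SE 0.15) on the log2 scale. Across 13 such sets of close relatives, the share of a member did not overlap between groups in 3, Rab8, Rab9 and Rab11, a description with no test and no background share computed for such sets. For Rab9 the separation was minimal, since Rab9b held at most 4.103% in siNC and at least 4.105% in siQk.

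Rab3b had the highest fold change of the family, which rested on 1 library. It was at 1.46, 0.715 and 1.11 RPKM in siNC and 1.58, 5.66 and 0.734 RPKM in siQk. The log2 fold change of 1.25 (SE 0.90, unadjusted p = 0.0758) was 0.053 without siQk replicate 2. Rab3a, the main Rab of synaptic vesicles, was at 9.64 to 14.9 RPKM in siNC and 10.8 to 15.8 RPKM in siQk, with a log2 fold change of -0.0020 (SE 0.23). Rab3c and Rab3d differed by 0.14 (SE 0.26) and 0.24 (SE 0.18). Rab27a, which tethers secretory granules, was at 10.3, 22.2 and 8.42 RPKM in siNC and 12.1, 9.88 and 14.0 RPKM in siQk, and it made up all of the Rab27 RPKM since Rab27b had no count.

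Of the 5 remaining tested members, Rab40b had the lowest fold change of the family, with groups that overlapped. Rab40 proteins carry a SOCS box and are known to act in ubiquitin ligase complexes. Rab40b was at 2.17, 5.44 and 5.20 RPKM in siNC and 3.28, 1.30 and 1.56 RPKM in siQk, for a log2 fold change of -1.08 (SE 0.59, unadjusted p = 0.0351). The groups overlapped because siNC replicate 1 lay below siQk replicate 1. The log2 fold change ran from -1.60 to -0.84 when single libraries were left out, with an unadjusted p of up to 0.122. Rab40c was at 4.48 to 5.28 RPKM in all libraries. Rab23, which acts in cilia and Hedgehog signalling, differed by 0.042 (SE 0.090) on the log2 scale, and Rab28 by -0.12 (SE 0.24).

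**Figure D4:**
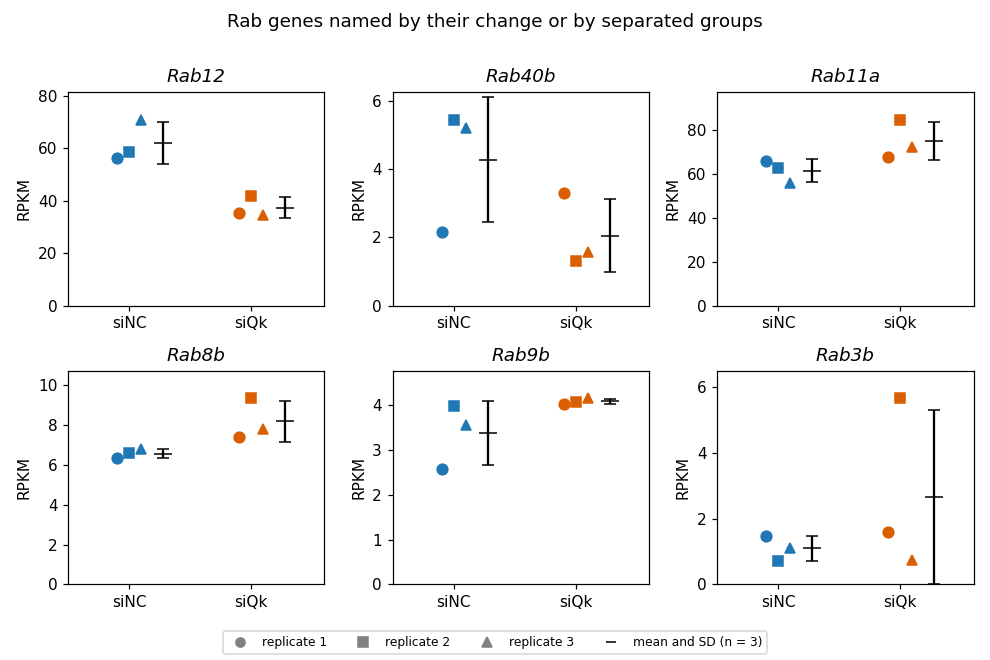
RPKM (y axes from 0) of 6 Rab genes in the siNC and siQk libraries, with a marker shape per replicate and the mean and SD (n = 3) in black. Rab12 separates by a gap, Rab11a, Rab8b and Rab9b separate narrowly upward, Rab40b overlaps, and the higher siQk mean of Rab3b rests on siQk replicate 2 at 5.66 RPKM.

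The 3 members with separated and higher groups also held quaking-type hexamers, and Rab40b held none, as counted in the longest mRNA of each gene. Of mRNAs within 10% of the same length, 37.3% held at least 1 for Rab11a, 62.0% for Rab8b, 56.4% for Rab9b and 31.8% for Rab40b. The hexamers are shown in the same way as those of Rab12 so that members with separated groups on either side of siNC can be set side by side:
Rab11a, 3′ UTR, chr9:64715678-64715683: agaaatgtacacACTAATacttagttttac
Rab8b, 3′ UTR, chr9:66844078-66844083: catatgccaagaACTAACagaactttgtgt
Rab9b, coding, chrX:136861170-136861175: gccaaagatgatACTAATgtgacagtggcc
Rab9b, 3′ UTR, chrX:136858970-136858975: ctgtacgtcagaACTAATaaatggtaatta

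Rab30 held the most of any named member, with 9, in an mRNA of 9456 bases, a length at which 88.2% of mRNAs hold at least 1. The hexamer was thus present in members with lower and with higher siQk levels, and these counts were not tested against the fold changes.

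Of the 14 Rab genes known as Lrrk2 substrates, 13 were tested, and Rab12 was the 1 with an unadjusted p under 0.05 (1.69% of all genes tested were lower at that p). Groups were separated for Rab12, lower, and Rab8b, higher, beside 3.49% and 5.35% of all genes tested. Their median log2 fold change was 0.11, with 2 below 0 and 11 above, and their summed RPKM overlapped between groups (385.0 to 405.8 in siNC and 397.9 to 424.8 in siQk). Among the 10 genes listed for the pathway, none passed an unadjusted p of 0.05 and none had separated groups, counts that are again near the shares over all genes tested. Lrrk2 itself was low, at 0.384 to 0.965 RPKM, while its relative Lrrk1 was at 8.07 to 11.5 RPKM. The median of the 10 was -0.16. Ppm1h, the phosphatase that reverses Rab phosphorylation, was at 4.28 to 4.91 RPKM in siNC and 2.55 to 4.76 RPKM in siQk (log2 fold change -0.23, SE 0.29). Vps35, a retromer subunit, was at 81.3 to 119 RPKM over all libraries with a log2 fold change of -0.066 (SE 0.21). Ppm1j, Mapk8ip3 and Spag9 had log2 fold changes of -0.66 (SE 0.68), -0.24 (SE 0.25) and -0.17 (SE 0.16), and Ppm1m and Rilpl2 of 0.14 (SE 0.31) and 0.080 (SE 0.20).

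The genes linked directly to Rab12 had a median SE of 0.39. Dennd3, its exchange factor, was at 4.83, 5.84 and 4.43 RPKM in siNC and 4.78, 12.1 and 4.60 RPKM in siQk, again with siQk replicate 2 apart (log2 fold change 0.48, SE 0.46). Tfrc, the transferrin receptor whose degradation involves Rab12, was at 18.4, 12.9 and 24.0 RPKM in siNC and 35.6, 19.5 and 29.2 RPKM in siQk, with overlap at 1 library (log2 fold change 0.57, SE 0.39, unadjusted p = 0.0683). Slc36a4, an amino acid transporter linked to Rab12, differed by -0.074 (SE 0.19) and the effector Rilpl1 by 0.15 (SE 0.25). Rilp, at 0.0782 to 0.467 RPKM, was too low to test.

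Genes that act on Rab proteins in general were also not called in either direction. Of the 8 genes of prenylation and GDI function, Chml, an escort protein for prenylation, was at 1.23, 1.08 and 1.17 RPKM in siNC and 1.73, 2.81 and 1.52 RPKM in siQk (log2 fold change 0.77, SE 0.27, unadjusted p = 0.0173), the 1 of 8 that passed an unadjusted p of 0.05 (1.2% of all genes tested were higher at that p). Its groups were separated, as were those of Rabggtb, the beta subunit of the Rab prenyltransferase, which was also higher (59.8 to 63.5 against 69.9 to 72.0 RPKM), whereas Rabif was separated and lower (8.29 to 9.05 against 8.03 to 8.22 RPKM). That made 2 of 8 higher and 1 of 8 lower, beside 5.35% and 3.49% of all genes tested. The median of the list was -0.069.

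None of the 30 tested exchange factors, 32 tested GAPs or 34 tested effectors passed an unadjusted p of 0.05 by the quasi-likelihood test. Of all genes tested, 1.69% were lower and 1.2% higher at that p, so such counts in lists this short are near the background. The median log2 fold changes of these lists, in the same order, were -0.014, -0.065 and 0.032. Groups were separated for 3 exchange factors, lower for Madd (16.2 to 18.1 against 14.8 to 15.1 RPKM), which acts on Rab3, and higher for Ankrd27 and Dennd5b, 1 and 2 of 30 beside 3.49% and 5.35% of all genes tested. Among the GAPs, Tbc1d22a was separated and lower and Tbc1d9 separated and higher, 1 each of 32. None of the 34 tested effectors was separated, beside the same shares over all genes tested.

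**Figure D5:**
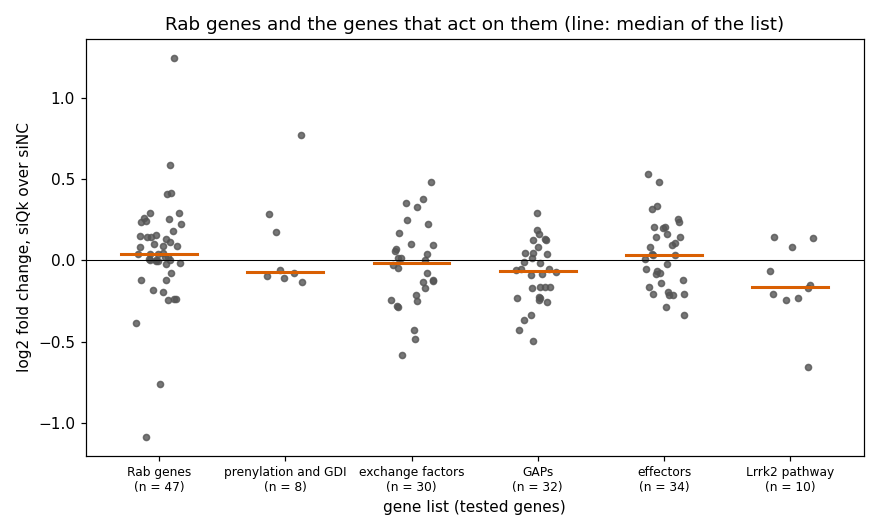
Log2 fold change (y axis, siQk over siNC) of each tested gene among the Rab genes and 5 lists of genes that act on or with them (x axis), with the median of each list as a line. The medians lie between -0.16 and 0.042, and Rab40b, Rab12 and Rab3b are the outermost points of the Rab genes.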

How the data were processed

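RNA was prepared with an Illumina TruSeq poly-A protocol. The authors aligned reads with OLego and quantified genes with Quantas. The submitters' processing notes name mm10. The deposited tables give, per gene, an expected count (21.8% to 22.9% of values not whole within 1e-06), the exon length and an RPKM that equals that count per kilobase of exon, scaled to the library's total. Expected counts were rounded and tested with edgeR 4.0.16 (R 4.3.3; TMM, quasi-likelihood F test) over genes with a mean log2 CPM (counts scaled to the library total) above 0, 12665 in all, adjusted by Benjamini and Hochberg. A call needed an unadjusted p under 0.01 and an adjusted p under 0.1. SEs come from the spread of log2 CPM (prior count 2) between libraries, and levels are RPKM. Reads carry no molecular identifiers, so the limit of 3 counts covers counting error only.

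The members and gene lists were chosen with earlier results of these data known. Named members were Rab12, Rab genes with an unadjusted p under 0.05 or separated groups, the 3 largest rises and falls, and the 10 most abundant, with others given as levels by compartment. All 57 matched GENCODE release 21 of the mouse (GRCm38) by Entrez identifier, and 12 share over 5% of exon bases with another gene. Alternatives were 3 scalings, 2 filters, 3 other tests (DESeq2 1.42.0 among them), the replicate number as a block, and leaving out libraries. Splicing was not analysed here.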

Additional observations from a re-analysis of the deposited data

How the results depend on the processing

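Over 16 alternatives Rab12 stayed lower in siQk, with a log2 fold change of -0.85 to -0.62, an unadjusted p of 9.24e-05 to 0.00903 and an adjusted p of 0.090 to 0.9999. It was called under 1 of them, DESeq2 (-0.77, adjusted p = 0.090), which made 1 Rab gene called lower. No Rab gene was called higher under any of the 16. When libraries were left out in turn, the Rab12 value was lowest at -0.85, with siQk replicate 2 left out, and highest at -0.62, with siNC replicate 3 left out, the number of Rab genes called lower or higher stayed at 0, the number at an unadjusted p under 0.05 was 1 to 3, the median Rab log2 fold change was 0.0038 to 0.134, and the difference in summed Rab RPKM was -1.29 to 150.5. The lower end of these 3 ranges came with siQk replicate 2 left out. Rab32 ranged from -0.36, a reversal that came with siQk replicate 2 left out, to 0.72. Leaving out siNC replicate 3 and siQk replicate 2 together, chosen after seeing the data, gave -0.71 for Rab12 (adjusted p = 0.792), and reversed Rab32 to -0.14, Rab39b to 0.26 and the median of the Rab genes to -0.0066. The cause was not tested.

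The main fit did not pair libraries by replicate number. Deviations from the group means correlated at 0.213, 0.018 and -0.17 within numbers 1, 2 and 3. Between unlike numbers they correlated at -0.246 to 0.197. With 3 libraries per group, these values cannot settle whether the libraries were paired. With the replicate block 0 Rab genes were called, 2 had an unadjusted p under 0.05, and Rab12 was at -0.75 (adjusted p = 0.9997). With TMM-scaled RPKM the difference in summed Rab RPKM went from 87.5 to 60.8, and that of the secretory Rab genes, computed this way only after seeing the data, from 8.35 to 5.37. Scaling by library totals moved the median of all genes to 0.028. Groups of 3 libraries limit what these tests can call, and members under about 1 RPKM rest on few counts.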
